A study of Danio rerio with 2 samples.

Results

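Cluster 6 is a population of npas4l reporter cells that came almost wholly from npas4l mutant zebrafish (Danio rerio) embryos. Its members are the cells to which the authors' coarse Leiden clustering gave the number 6. They were 754 of 10469 cells in all, of which 743 came from the mutant and 11 from the heterozygous library. The tables used here give measures of each cell and no gene values, so the cluster is called by its number, no marker could be checked, and no cell type is given to it.

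The cells were taken at 20 hours post fertilisation (hpf) from embryo tails and sorted by their GFP, with DAPI used to leave out dead cells. Heterozygous embryos were npas4lbns423/+ and mutant embryos were npas4lbns423/bns297, so the bns423 allele was present in both groups and the mutants had no wild-type copy. The labels speak of about 150 embryos without saying whether this is per genotype, do not say how the reporter was built, and aim at 5000 cells per lane. There was 1 library per genotype, made from pooled embryos, so no difference below could be tested, every interval covers counting error over cells only, and a cluster drawn mostly from 1 library may reflect the library instead of a kind of cell.

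Npas4l, encoded at the cloche locus, is a basic helix-loop-helix transcription factor that acts at the top of the programme by which zebrafish mesoderm forms endothelium and blood, upstream of the regulators etv2 and tal1. Embryos without it lack most endothelial and blood cells. A reporter under npas4l control marks cells that switched the gene on, for as long as its product lasts in them. RNA velocity compares unspliced with spliced transcripts in each cell and from this infers a direction of change. From that direction the authors' fit gave each cell a pseudotime (its place along the inferred course), a root cell score (how much it resembles a start), an end point score (how much it resembles a finish) and a self-transition value (how strongly it is predicted to stay as it is), all between 0 and 1.

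Cluster 6 made up 14.1% of the mutant library (exact 95% interval 13.2% to 15.1%) and 0.211% of the heterozygous library (0.106% to 0.378%). Its share was thus 66.8-fold higher in the mutant library. Dividing opposite limits of the 2 intervals gave a range of 34.9 to 143. This range is not itself a 95% interval of the ratio. Shares differed at least 2-fold in 7 of the 8 coarse clusters (87.5%), and 5 of the 8 (62.5%) were at least 2-fold higher in the mutant library, so a higher mutant share was common; among those 5 the ratio of cluster 6 was the highest. Its cells had few UMIs (unique molecular identifiers, the counted transcripts), and it held 11.5% of the mutant library's UMIs, or 9699111. The cluster was not divided further by the authors, since fine cluster 14 held the same 754 cells. Leaving clusters 1 and 4, the main heterozygous populations, out of the denominator lowered the ratio to 14.9. The counts of clusters that differed at least 2-fold were not recomputed with this denominator. Taking only cells with at least 14240 UMIs lowered it to 22.7, a limit that kept 152 mutant and 10 heterozygous members. With UMIs matched between the libraries the ratio was 49.5, from shares of 12.3% and 0.248%.

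By median UMIs, the mutant members ranked last among the 8 clusters of their library. They ranged from 5299 to 47309 UMIs, with a median of 11771 and quartiles of 10275.5 and 13754.5. The other mutant cells had a median of 14859, so the ratio of medians was 0.792. Clusters 5 and 7 came nearest, with medians of 12353 and 12606.5. Depth was also most even in cluster 6, whose upper quartile was 1.34 times its lower quartile, against 1.45 to 1.68 times in the other clusters. A thin tail of 62 cells nevertheless had more than 20000 UMIs, which is 8.34% of the cluster (6.46% to 10.6%), compared with 19.8% of the other mutant cells. Doublets were not called here, and their part in this tail was not tested.

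Against the pooled other mutant cells, spliced transcripts were fewer and unspliced ones about as many. In the mutant members, spliced and unspliced UMIs together came to a median of 104% of the total UMIs. The 2 counts thus cannot both be separate parts of that total, and whether either is a part of it was not tested. The median cell of cluster 6 had 10975 spliced UMIs against 13789 in the other mutant cells, but 1254 unspliced UMIs against 1243. Cluster by cluster, its unspliced median lay above those of clusters 1, 2 and 3 (1150, 1199 and 1173) and below those of clusters 4, 5, 7 and 8 (1817, 1374, 1332 and 1620), against which both kinds were fewer. Unspliced transcripts made up 10.2% of its spliced and unspliced UMIs (quartiles 8.78% and 12.0%), against 8.14% (6.68% and 10.2%) in the other mutant cells. This level was shared with clusters 4, 5, 7 and 8, whose medians lay between 9.86% and 10.4%. In pairs of cells drawn from cluster 6 and from cluster 5, 7 or 8, the cell of cluster 6 had the higher percentage in 48.5%, 49.9% and 48.5% of pairs, close to even. Against clusters 1, 2 and 3, with medians of 7.02%, 7.07% and 7.91%, it was higher in 83.4%, 85.6% and 75.6% of pairs.

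Cluster 6 had no cells with almost no unspliced RNA. Its lowest cell had 5.02% unspliced UMIs, while the lowest cell of every other mutant cluster had between 0.345% and 0.973%. Cells under 2%, a limit chosen after seeing the data, numbered 0 of 743 in cluster 6 and 37 of 4519 (0.819%) in the other mutant cells. By a limit of 3 cells for a count of 0, the share in cluster 6 could reach 0.404%. The exact interval of cluster 6, 0% to 0.495%, overlapped those of clusters 1, 2, 3, 4 and 7. It lay below those of cluster 5 (9 of 631, 0.654% to 2.69%) and cluster 8 (5 of 304, 0.536% to 3.80%). Since the limit lay below the lowest cell of cluster 6, its count of 0 followed from that choice, and these intervals only describe the cells.

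Cluster 6 had few genes per cell, and an intermediate number among cells of like depth. The median cell of cluster 6 had 2805 genes, against 3002 in the other mutant cells. Per 1000 UMIs it had 239 genes, next to 242 in clusters 5 and 7, and 173 in cluster 2. Since this ratio depends on depth, clusters were also compared among cells between the quartiles of UMIs of cluster 6. There the median was 2805 genes in 371 cells of cluster 6, below the 2930 of cluster 7, the 2921 of cluster 5 and the 2867.5 of cluster 8, and also below the 2942 of cluster 4 (6 cells) and the 2847 of cluster 1 (29 cells). It was above the 2720 of cluster 3 and the 2546 of cluster 2. Depth still differed within this window, with medians of 11771 UMIs in cluster 6, 12343 in cluster 8 and 12277 in cluster 1. Per 1000 UMIs in the window, cluster 6 had 239 genes, above the 236 of cluster 8 and the 232 of cluster 1. Clusters 4, 5 and 7 remained higher, with 245, 246 and 248, and clusters 2 and 3 lower, with 204 and 224. The mitochondrial percentage had a median of 1.69% in cluster 6 (quartiles 1.32% and 2.20%) and of 1.73% in the other mutant cells (1.34% and 2.20%), so the distributions nearly coincided.

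**Figure D1:**
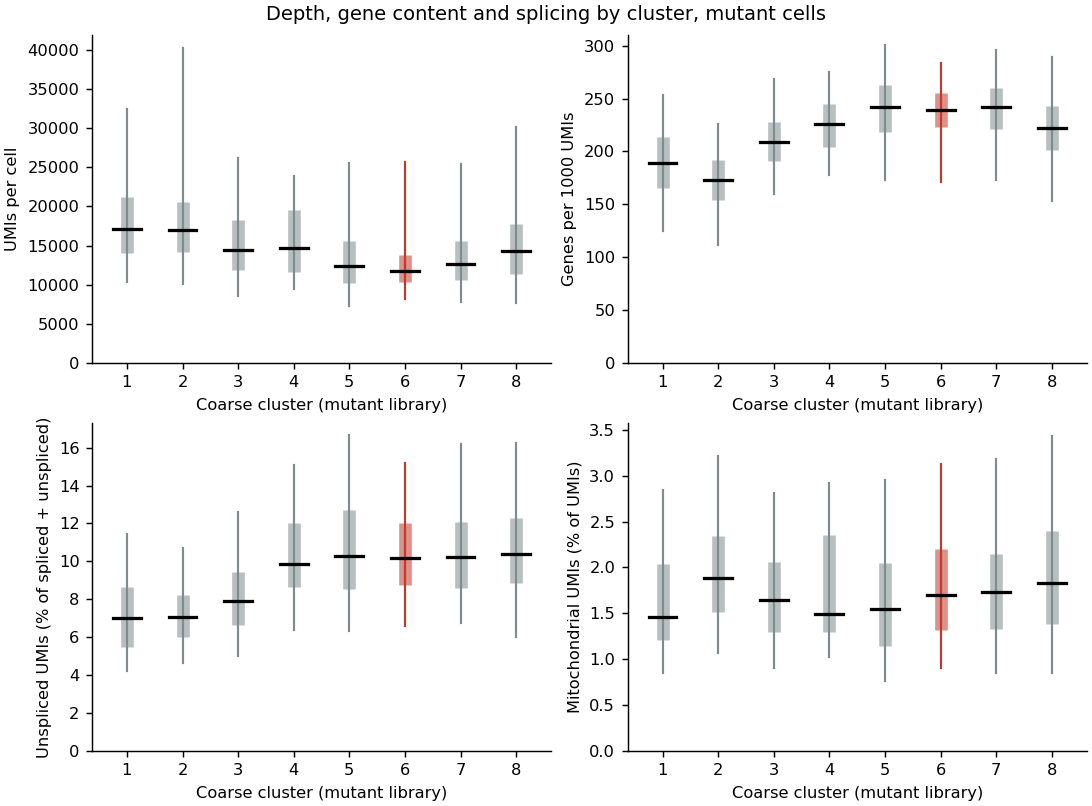
UMIs per cell, genes per 1000 UMIs, percent of unspliced UMIs and percent of mitochondrial UMIs for the mutant cells of each coarse cluster, with cluster 6 in red. Black lines are medians, thick bars run from the lower to the upper quartile and thin lines from the 5th to the 95th percentile of cells; cluster 6 has the lowest and narrowest UMI bar and shares its unspliced level, near 10.2%, with clusters 4, 5, 7 and 8.

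In pseudotime most of cluster 6 lay in a band near the middle of the scale. The mutant cells had a median of 0.463 and quartiles of 0.455 and 0.474. Clusters 1, 2, 3 and 5 had narrower quartile ranges, and clusters 4, 7 and 8 wider ones. Cluster 3 occupied the same stretch, with a median of 0.461, and 714 of its 1447 mutant cells (49.3%) lay between the quartiles of cluster 6. Of cluster 2, whose median was 0.44, 53 of 1469 cells (3.61%) did so. Clusters 5, 7 and 8 lay later, with medians of 0.4995, 0.540 and 0.839, and 2, 1 and 1 of their cells fell between these quartiles. A few members lay far from the band. These were 11 mutant cells with a pseudotime under 0.4, from 0.0499 to 0.379, with a median root cell score of 0.615 and between 8055 and 21028 UMIs.

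The end point score, in contrast, spread over nearly its whole range. Mutant cells of cluster 6 ran from 6.41e-05 to 0.888, with a median of 0.0133 and quartiles of 4.44e-04 and 0.390. Scores of 0.1 or more were given to 274 of the 743 cells, 36.9% (33.4% to 40.5%), and scores under 0.001 to 253 cells, 34.1% (30.6% to 37.6%). Among the other mutant cells 8.59% (7.79% to 9.44%) reached 0.1, and these lay mainly in cluster 8 (163 of 304 cells, 53.6%) and cluster 2 (209 of 1469, 14.2%). Clusters 1, 3, 4, 5 and 7 together gave 16 such cells. Cluster 6 thus held 274 of the 662 mutant cells that reached 0.1, or 41.4%, although it held 14.1% of the library. It also held 162 of the 421 that reached 0.5, or 38.5%, and 0 of the 160 that reached 0.9, which cluster 2 (82 cells) and cluster 8 (78 cells) divided between them.

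**Figure D2:**
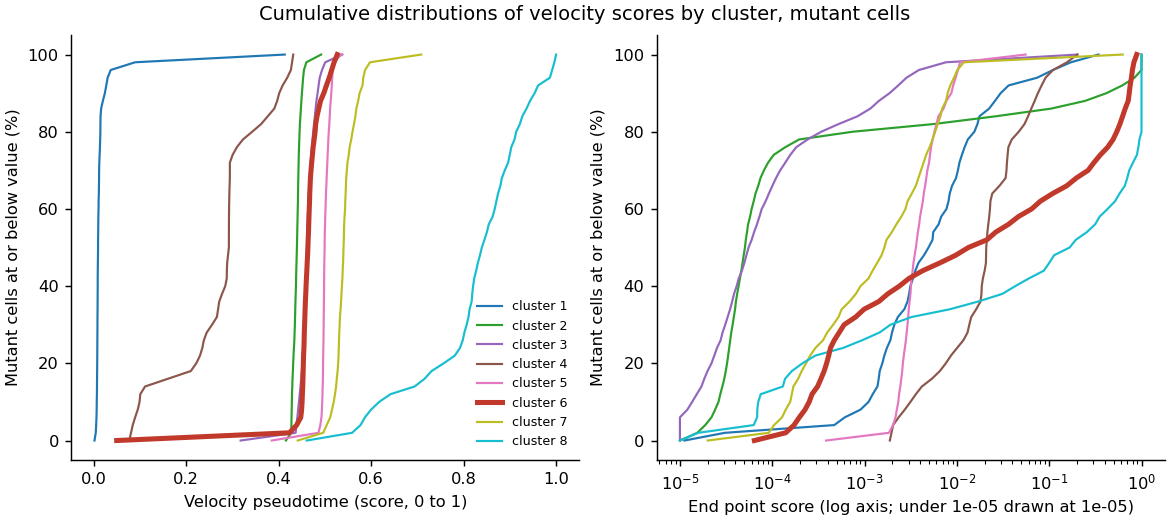
Percent of mutant cells of each coarse cluster at or below a given velocity pseudotime (left) and end point score (right, log axis), with cluster 6 as the thick red line. Cluster 6 is a steep step at a pseudotime near 0.463 beside cluster 3, while its end point scores run from 6.41e-05 to 0.888 with no single step.

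Clusters 3 and 6 overlapped in pseudotime but not in the share of cells with a high end point score. Between pseudotimes of 0.44 and 0.48, 151 of 574 mutant cells of cluster 6 reached an end point score of 0.1, or 26.3% (22.7% to 30.1%). In cluster 3 it was 1 of 1166 cells, or 0.0858% (0.00217% to 0.477%). In cluster 2, 164 of 701 cells in this stretch reached it, 23.4% (20.3% to 26.7%), which overlaps the interval of cluster 6. The 3 clusters also differed here in unspliced RNA, with medians of 10.2% in cluster 6, 7.92% in cluster 3 and 7.20% in cluster 2. Their depth differed too, with medians of 11657, 14263.5 and 17120 UMIs, and its part in the scores was not tested. This stretch of pseudotime was chosen after seeing the data.

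At a limit of 0.1, root cell and end point scores placed most mutant members at opposite poles. The root cell score had a median of 0.0747 (quartiles 0.00726 and 0.163), against 0.0337 in the other mutant cells. It reached 0.1 in 42.4% of members, against 63.2%, 52.2%, 49.7% and 38.4% in clusters 5, 4, 1 and 7. In clusters 3, 8 and 2 the share was 28.3%, 7.24% and 3.00%. A root cell score of 0.5 was reached by 36 members (4.85%) and by 5.89% of the other mutant cells. An end point score of 0.5 was reached by 162 members. Of the 743 cells, 303 (40.8%) had a root cell score of at least 0.1 and an end point score below it, and 262 (35.3%) had the reverse. Another 166 (22.3%) reached 0.1 on neither score, and 12 (1.62%) reached it on both. Across cells Spearman's rho between the scores was -0.875 (743 cells of 1 library, scored by the same velocity fit, so it is a description). It was as strong in cluster 8 (-0.882, 304 cells) and lay between -0.261 and -0.829 in the other clusters. The poles were close in splicing, with medians of 10.2% unspliced at the root pole and 9.84% at the end pole. They were also close in mitochondrial percent, with 1.64% and 1.73%. In depth their medians were 11664 and 12519.5 UMIs, but 48 of the 62 members above 20000 UMIs had an end point score of 0.1 or more. The poles lay further apart in pseudotime, with 0.463 and 0.477, when the whole cluster's quartiles were 0.0190 apart. The 166 cells that reached 0.1 on neither score had a median pseudotime of 0.458, and the 12 on both 0.451. Both of these medians came before that of the root pole. Self-transition was 0.381 at the root pole and 0.417 at the end pole. Pseudotime and self-transition came from the same velocity fit as the scores.

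End point scores were high at the late edge of cluster 6. Pseudotime and end point score came from the same velocity fit, so this too is a description. Across all mutant members Spearman's rho between them was 0.254, and among the 371 cells within the UMI quartiles it was 0.0845. Of the 68 mutant cells with a pseudotime of at least 0.5, 67 reached 0.1, or 98.5% (92.1% to 99.96%), and of the 69 cells between 0.48 and 0.5, 50 did, or 72.5% (60.4% to 82.5%). Before 0.48 the share lay at 25.8% or 26.9% in the 2 large bands and at 18.8% (7.21% to 36.4%) in the 32 cells under 0.44, with overlapping intervals. The median score was less even, at 0.0144 under 0.44, 0.0177 from 0.44 to 0.46 and 5.09e-04 from 0.46 to 0.48. The upper quartiles of the 2 large bands were 0.108 and 0.135. The score did not climb to the end of the band. The highest, 0.888, belonged to a cell at 0.490, and the 16 mutant cells at 0.52 or later scored between 0.718 and 0.778. Self-transition was highest in the last band as well, with a median of 0.544 against 0.395 over all mutant members. The bands were chosen after seeing the data.

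**Figure D3:**
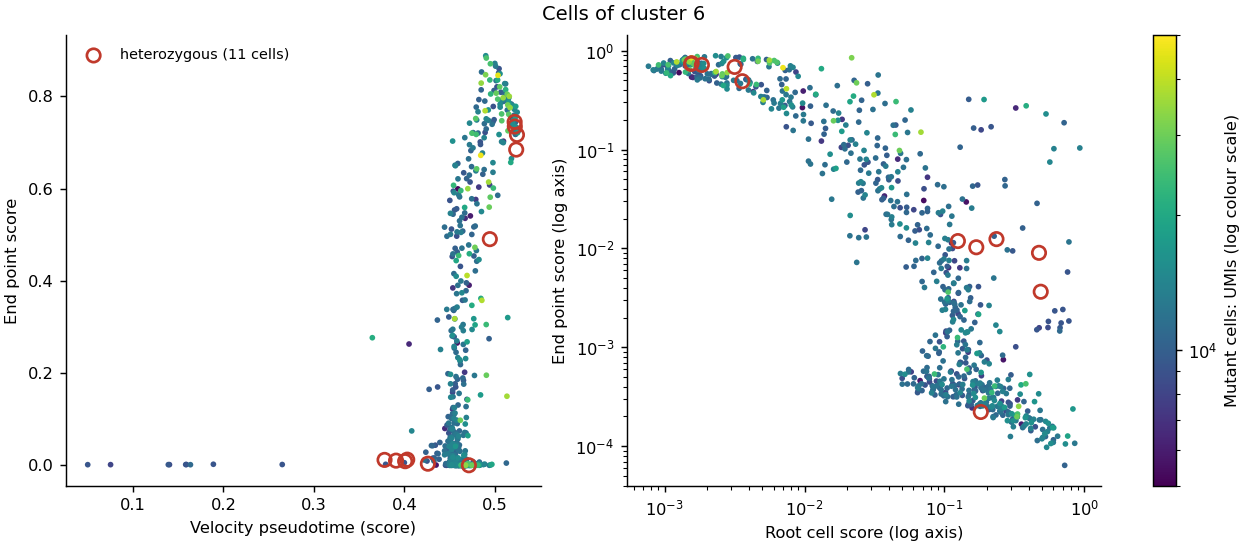
Each point is a cell of cluster 6: filled points are the 743 mutant cells, coloured by UMIs per cell on a log colour scale, and red circles are the 11 heterozygous cells. The left panel plots end point score against velocity pseudotime and shows a wide spread of scores near 0.46 and the highest, 0.888, at 0.490; the right panel plots end point score against root cell score on log axes and shows the root and end poles.

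Depth moved with this pattern. Among the 62 deep mutant members, with more than 20000 UMIs, 48 had an end point score of 0.1 or more, 77.4% (65.0% to 87.1%), against 226 of 681 in the others, 33.2% (29.7% to 36.9%). Below 14000 UMIs the share was between 31.0% and 32.2% in all 3 bands, and from 14000 to 20000 UMIs it was 45 of 105 cells, 42.9% (33.2% to 52.9%). Deep cells were also later, with 34 of 62 at a pseudotime of 0.48 or more, compared with 103 of 681. In cluster 2 the share was likewise higher in the deep cells, 159 of 398 (39.9%, 35.1% to 44.9%) against 50 of 1071 (4.67%, 3.48% to 6.11%). Clusters 1, 3 and 7 leaned the same way with at most 6 deep cells reaching 0.1 in each. In cluster 8 the share was lower in the deep cells, 8 of 54 (14.8%, 6.62% to 27.1%) against 155 of 250 (62.0%, 55.7% to 68.0%). Without its deep cells, cluster 6 still had 50 of 51 members at 0.5 or later and 34 of 52 between 0.48 and 0.5 with a score of 0.1 or more.

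**Figure D4:**
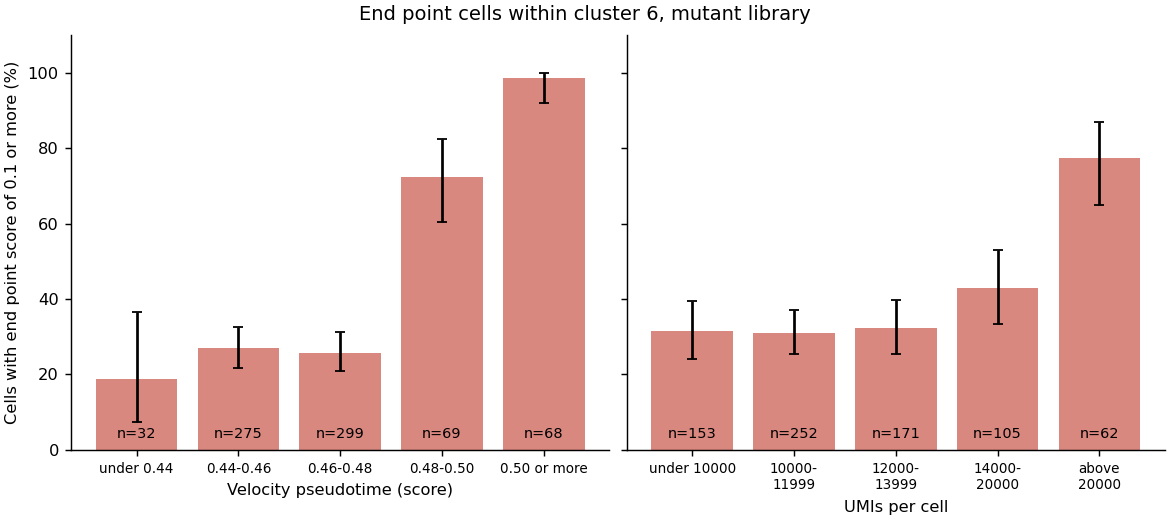
Percent of mutant cells of cluster 6 with an end point score of 0.1 or more, by band of velocity pseudotime (left) and of UMIs per cell (right). Error bars are exact 95% intervals for counting error and n is the number of cells; the share is 98.5% in the latest band and 77.4% above 20000 UMIs, against 25.8% to 26.9% in the large pseudotime bands, 31.0% to 32.2% below 14000 UMIs and 42.9% from 14000 to 20000.

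In depth and pseudotime the 11 heterozygous members did not sit where most mutant members did. Their UMIs ran from 11310 to 30172 with a median of 17185, and 10 of the 11 lay above the mutant upper quartile. The other heterozygous cells had a median of 20769.5 UMIs, and those outside cluster 1, which held 58.8% of that library, had 13990, so the members lay below the former and above the latter. They had more genes per cell, with a median of 3452 against 2805 in the mutant members, and 10 of the 11 lay above that mutant median. Per 1000 UMIs, a ratio that depends on depth, they had 164 to 236 genes, all 11 below the mutant median of 239. Their unspliced percentages, from 7.72% to 15.6% with a median of 11.3%, lay on both sides of the mutant median, 6 above and 5 below.

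In pseudotime the heterozygous members ran from 0.378 to 0.525 and fell at the edges of the mutant band. Only 1 of the 11 lay between the mutant quartiles, with 5 below and 5 above. Under 0.44 lay 5 of 11 heterozygous cells (45.5%, 16.7% to 76.6%) and 32 of 743 mutant cells (4.31%, 2.96% to 6.03%). At 0.5 or later lay 4 of 11 (36.4%, 10.9% to 69.2%) and 68 of 743 (9.15%, 7.18% to 11.5%), and these intervals overlapped. The 4 latest cells had end point scores between 0.685 and 0.745, near those of the 16 latest mutant cells. The 5 earliest had root cell scores of 0.125 or more and end point scores of at most 0.0124. The median end point score was 0.0124 in the heterozygous and 0.0133 in the mutant members, and 5 of the 11 lay between the mutant quartiles. An end point score of 0.1 was reached by 45.5% (16.7% to 76.6%), against 36.9% of mutant members. For the root cell score it was 54.5% (23.4% to 83.3%) against 42.4%, and the intervals overlapped for both scores. Every heterozygous member belonged to 1 of the 2 poles, 6 to the root pole and 5 to the end pole. With 11 cells, however, the empty classes allow shares of up to 27.3% by a limit of 3 cells, or 28.5% by the exact interval.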

How the data were processed

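Sorted npas4l reporter cells at 20 hpf were profiled in droplets, 1 library per genotype. STARsolo, Scanpy and the build danRer11 are named, without their role, in the submitters' processing notes. Of versions, cell filters, doublet treatment, clustering and velocity settings nothing is given in the sources used. The authors deposited, per the file headers, genes per cell, the natural log of total UMIs plus 1, the percent of mitochondrial UMIs, Leiden cluster numbers, spliced and unspliced UMIs, and velocity scores deposited as values from 0 to 1. The log was inverted to UMIs and rounded (by at most 0.0614). The cells of both tables were matched by library and barcode, and all 10469 were identical in cluster, UMIs, genes and mitochondrial percent. Barcodes present in both libraries numbered 5, and 1 of them belonged to a mutant member, whose heterozygous partner lay in cluster 1. No cell had under 5267 UMIs or 925 genes.

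Members were compared with the other mutant cells by medians, quartiles and shares of pairs; shares have exact (Clopper-Pearson) 95% intervals, and a count of 0 allows up to 3 cells. Cells are not replicates and the clusters were made from the same cells, so there is no p-value. Without gene counts cells could not be thinned to equal depth, and a window of UMIs was used. The named items were cluster 6, the other coarse clusters and the fine cluster holding its cells. Members, tests and alternatives were chosen with earlier results of these data known. Python 3.11.15, pandas 2.3.3, NumPy 2.4.6 and SciPy 1.17.1 were used, and the medians' intervals and weights were tested on simulated data.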

Additional observations from a re-analysis of the deposited data

How the results depend on the processing

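Limits are set by 1 library per genotype, which left nothing to leave out, and by 11 heterozygous members. No paired analysis was possible because each genotype had 1 library. Over 95 recomputed values, 58 were labelled as unchanged, 30 as moved and 7 as reversed. Unchanged meant within the counting interval of the reported value, which for the ratio of shares was the range from opposite limits. The number of relations within the cluster had no such interval, and 2 of the 58 were values of it. Of the unchanged values 11 were fixed, because fine cluster 14 and the second table hold the same cells. The ratio of shares was 22.7 with the UMI minimum, 28.4 without cluster 1 and 14.9 without clusters 1 and 4, by the change of denominator in the last 2. Taking both libraries together added the heterozygous cells of every cluster, the deep cluster 1 cells among them. The UMI ratio was then 0.689 and the gene ratio 0.894. The differences were 0.330 points in mitochondrial percent, 2.59 points in unspliced percent, 0.0280 in pseudotime and 0.0439 in self-transition. In the share reaching an end point score of 0.1 the difference was 21.0 points. Which of the added cells moved these values was not tested. The mitochondrial median was lower in the heterozygous than in the mutant cells in all 7 other clusters. Equal weight for the 7 other clusters, by which small clusters count as much as large ones, gave a gene ratio of 0.895. The differences were 1.21 points unspliced, 0.0230 in pseudotime, 0.00858 in root cell score and 0.0589 in self-transition. The end point difference reversed to -0.0149. Among the medians so weighted, that of cluster 8 (304 cells) was 0.166 and the next highest, of cluster 4 (23 cells), was 0.0208. Means in place of medians gave 0.0198 in root cell score, 0.142 in end point score and 0.0994 in self-transition, and pseudotime reversed to -0.0148. The mitochondrial maximum of 1.39% gave a gene ratio of 0.911, an end point difference of 0.00351 and a self-transition difference of 0.0543, and pseudotime reversed to -0.00389. Within the UMI quartiles of cluster 6 the gene ratio reversed to 1.014 and pseudotime to -0.00552, and self-transition differed by 0.0341. Weighting to the UMIs of cluster 6 reversed them to 1.03 and -0.00357 and gave 1.55 points unspliced and 0.0435 in self-transition. With at most 20000 UMIs, chosen after seeing the data, the UMI ratio was 0.847, the gene ratio 0.964 and the pseudotime difference 7.03e-04. Thresholds of 0.5 and 0.01 in place of 0.1 gave differences in end point share of 16.1 and 38.5 points. The pseudotime difference from all other mutant cells, 0.00357 as reported, thus has no stable direction. Of 28 pairs of measures within the cluster, 6 had a rho of at least 0.3 in size, and 3 of these 6 kept it within the UMI quartiles. Where no reason is given, the cause was not tested.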
